A study of Mus musculus with 16 samples.

Results

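The collagen chains are the genes whose symbol has the form Col, a number, a and a number, as in Col1a1. They were taken by that form from the deposited liver and kidney tables, with Col27a1 left out, which gave 43 of the 32989 genes listed. By the kind of collagen they encode, 10 were fibrillar, 6 were type IV chains of basement membranes, 9 were FACIT chains (fibril-associated collagens with interrupted triple helices) and 18 belonged to other types. The values compared below are FPKM, fragments per kilobase of exon per M (1000000) fragments of the library, so levels of different chains are given per length.

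The samples were livers and kidneys of 8 male C57BL/6J mice, 4 per lighting condition, and each mouse gave both organs (16 libraries). LD mice (L63, L65, L86 and L104) lived under a light-dark cycle with light from 8:00 to 20:00. ADV mice (A75, A91, A94 and A115) lived under a cycle that was advanced by 8 h every 4 days, a schedule of chronic jet lag. Both conditions lasted 85 weeks, all mice were 97 weeks old, and the question is which chains differ between ADV and LD in each organ. The mice were of 1 sex, 1 strain and 1 age, carried no engineered allele, and whole-organ RNA was measured, so fewer cells of a type and less RNA per cell cannot be told apart. The labels name sequencing at 2 providers without saying which library went to which, so provider cannot be told apart from lighting or from organ either.

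Library totals were 22.7 to 26.3 M fragments in the liver and 17.1 to 19.7 M in the kidney. One fragment over 1 kb of exon was worth 0.0380 to 0.0440 FPKM in the liver and 0.0508 to 0.0584 FPKM in the kidney. Hepatocyte genes summed to 58984 FPKM or more in every liver and to 1831 or less in every kidney, and podocyte genes to 62.0 or more in every kidney and to 4.15 or less in every liver, as the organ labels say. In each organ 1 ADV library stood apart. The A94 liver had a mean correlation of 0.941 with the other livers, against 0.977 to 0.982 for the rest, and the A115 kidney had 0.858 with the other kidneys and 33.8% of its fragments in mitochondrial genes, against 9.43 to 18.0% in the other kidneys. Results are therefore given with and without these libraries.

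Collagens are secreted proteins wound from 3 chains into a triple helix, in which glycine recurs at a fixed step along the chain so that the chains can pack together. Fibrillar collagens form the tension-bearing fibres of the interstitium, which thicken in fibrosis, and type IV collagens form the sheets under epithelia and around capillaries, including the filter of the kidney glomerulus. FACIT chains decorate fibrils, and the remaining types include the beaded filaments of type VI, the anchoring fibrils of type VII and the multiplexins (types XV and XVIII), which sit at basement membranes. In the liver most interstitial collagen comes from stellate cells and portal fibroblasts.

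The repeat of glycine can be read in the exons of the fibrillar chains, which is why 2 of them are shown. Both are coding exons of 54 bases from the GENCODE annotation of GRCm38, Col1a1 at chr11:94939904-94939957 (coding exon 8, plus strand) and Col3a1 at chr1:45325360-45325413 (coding exon 6, plus strand), 5′ to 3′, with the glycine codon (GGN) that opens each step of 9 bases in capitals. Bases outside these steps are in lower case, also where they spell GGN in frame.
Col1a1: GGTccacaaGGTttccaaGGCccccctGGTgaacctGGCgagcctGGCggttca
Col3a1: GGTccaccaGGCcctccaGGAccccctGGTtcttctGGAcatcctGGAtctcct
Each exon holds 6 such codons. Of the inner coding exons of the fibrillar chains 272 of 568 (47.9%) were 54 bases long, against 12 of 284 (4.23%) of type IV chains, 109 of 414 (26.3%) of FACIT chains, 43 of 591 (7.28%) of the other chains and 0.734% of the inner coding exons of all genes. A length that is a multiple of 9 was found in 83.5% of fibrillar, 63.1% of all collagen and 14.3% of all inner coding exons.

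Type IV genes lie in head-to-head pairs. Col4a1 (chr8:11198423-11312826, minus strand) and Col4a2 (chr8:11312805-11449287, plus strand) start 21 bases apart and their annotated transcripts overlap by 22 bases at chr8:11312805-11312826, shown here on the plus strand because both transcripts contain it.
Col4a1 and Col4a2: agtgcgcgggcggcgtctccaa
Col4a3 and Col4a4 start 72 bases apart on chromosome 1, and Col4a5 and Col4a6 start 1343 bases apart on chromosome X. Fibrillar Col3a1 and Col5a2 are also neighbours, 24624 bases apart on chromosome 1.

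Promoters of 3 chains that the comparisons below turn on are shown, each as the 250 bases before the RefSeq start (GRCm38.p6, plus strand), Col1a2 at chr6:4505368-4505617, Col3a1 at chr1:45311288-45311537 and Col15a1 at chr4:47207762-47208011. Capitals mark matches, on either strand, to the CCAAT box, to the TATA element TATAAA, to the GC box, which reads GGGCGG, and to the E-box that circadian activators can bind, which reads CACGTG. No match in these windows overlapped another.
Col1a2: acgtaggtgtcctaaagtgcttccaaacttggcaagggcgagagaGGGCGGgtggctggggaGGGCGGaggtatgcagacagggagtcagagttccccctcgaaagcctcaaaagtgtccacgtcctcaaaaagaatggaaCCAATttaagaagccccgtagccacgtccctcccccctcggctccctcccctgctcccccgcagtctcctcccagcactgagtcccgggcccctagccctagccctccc
Col3a1: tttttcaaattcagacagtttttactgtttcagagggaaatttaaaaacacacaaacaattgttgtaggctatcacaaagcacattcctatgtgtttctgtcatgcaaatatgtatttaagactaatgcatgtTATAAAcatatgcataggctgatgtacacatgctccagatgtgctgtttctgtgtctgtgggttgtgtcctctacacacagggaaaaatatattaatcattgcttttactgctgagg
Col15a1: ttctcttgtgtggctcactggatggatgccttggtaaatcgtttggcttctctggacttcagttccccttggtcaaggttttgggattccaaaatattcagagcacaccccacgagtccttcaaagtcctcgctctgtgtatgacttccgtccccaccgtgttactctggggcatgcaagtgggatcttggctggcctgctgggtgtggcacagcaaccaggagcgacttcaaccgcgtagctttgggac
The Col1a2 window held GGGCGG at positions -205 and -188 and CCAAT at -109, counted from the start, the Col3a1 window held TATAAA at -117, and the Col15a1 window held none of the 4. Of the 43 chains 34 had a promoter in the RefSeq table. GGGCGG was in 19 of the 34 (55.9%) and in 32.7% of all 32851 promoters, CCAAT in 11 (32.4%) and 33.8%, TATAAA in 5 (14.7%) and 12.4%, and CACGTG in 0 of 34 and 6.02%. The median GC content was 58.4% for the collagen windows and 52.4% for all promoters. A match here is a run of letters and not a shown binding site.

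The livers and kidneys of LD mice made different collagens. In the liver 1 chain outweighed all others, Col18a1, whose product is cut to release endostatin, at 77.4 to 95.7 FPKM (89.0 ± 8.47, SD, n = 4) and 79.4% of the summed collagen FPKM. Col14a1, a FACIT chain that binds fibrils, followed at 6.78 ± 0.344 FPKM, with no overlap with Col18a1 above it or with fibrillar Col3a1 below it at 2.36 ± 0.101 FPKM. Then came Col5a3 at 2.19 FPKM, Col4a1 at 1.96 FPKM, the transmembrane collagen chain Col13a1 at 1.80 FPKM and the type VI chain Col6a1 at 1.67 FPKM, and these neighbours did not differ beyond their spread between mice. In all 7 chains exceeded 1 FPKM in LD livers and 23 were below 0.1 FPKM.

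In LD kidneys 5 chains exceeded 10 FPKM, and 4 of them were type IV. Col4a1, a ubiquitous basement membrane chain, was at 17.9 ± 6.05 FPKM, Col18a1 at 16.5 ± 6.74 FPKM, Col4a3 and Col4a4, chains of the mature glomerular filter, at 16.2 ± 2.26 and 14.8 ± 2.25 FPKM, and Col4a2, the partner of Col4a1, at 12.0 ± 3.36 FPKM (each SD, n = 4). Their ranges overlapped, so no order over all 5 is given. Within each LD kidney Col4a1 exceeded Col4a2 (ratio 1.40 to 1.59) and Col4a3 exceeded Col4a4 (1.07 to 1.11). Fibrillar Col1a2 followed at 8.47 FPKM, Col14a1 at 5.51 FPKM and Col3a1 at 4.86 FPKM. In all 16 chains exceeded 1 FPKM and 16 were below 0.1 FPKM.

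Over all 16 libraries, 23 of the 29 chains that passed the filter on low values differed between the organs (limma on log2(FPKM + 0.1), Benjamini-Hochberg adjusted over 14379 genes), 20 of them higher in the kidney and 3 higher in the liver. Of all genes tested 61.8% were higher in the kidney and 13.2% in the liver, so the lean toward the kidney was shared with genes in general, and the median gene was 0.74 higher in the kidney on the log2 scale. When libraries were scaled by the median ratio, which brought that shift to 0.013, 15 chains were higher in the kidney and 5 in the liver (75% higher, against 87.0% as deposited), and quantile normalization gave 14 and 7 (66.7% higher). Of the 29 chains 6 passed the filter through the kidney alone (Col4a6, Col8a1, Col19a1, Col23a1, Col24a1 and Col26a1), which favours a difference, so their place in the count carries no weight. With a mean above 0.5 fragments per M required in each organ, 13 of 23 chains were higher in the kidney, beside 59.2% of genes, and 3 in the liver, beside 12.2%. The 5 type IV chains that passed the filter in each organ were higher in the kidney under each of the scalings named, as deposited by 6.73 for Col4a3, 6.51 for Col4a4, 4.02 for Col4a5, 3.22 for Col4a2 and 2.96 for Col4a1 on the log2 scale. Col4a6, which passed through the kidney alone, was 1.90 higher there. Col4a3 was at 8 to 14 fragments in each liver and at 2024 to 3059 in each kidney.

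The 3 chains higher in the liver stayed so under each scaling. Col5a3, a minor fibrillar chain, was lower in the kidney by 2.64, Col18a1 by 2.30 and Col13a1 by 1.86 on the log2 scale, and each was higher in the liver of all 8 mice. Col14a1 was higher in the liver in 7 of 8 mice but did not differ as deposited (adjusted p = 0.204, limma), and it differed under median-ratio scaling (log2 difference, kidney minus liver, of -1.08). Fibrillar Col1a1, Col1a2 and Col5a2 were higher in the kidney by 2.42, 2.64 and 1.95 under the deposited scale, whereas Col3a1 did not pass the test (0.92, standard error 0.58, adjusted p = 0.162, limma), though it was higher in the kidney in 7 of 8 mice. Without A94, Col3a1 passed at 1.22 and Col5a1 at 0.65 (adjusted p = 0.0278 and 0.0313, limma), and 21 of 26 chains were higher in the kidney, beside 61.8% of genes, and 3 in the liver, beside 13.6%. Without A115 these counts were 19 and 3 of 28 chains, beside 70.9% and 13.8% of genes. Fibrillar Col5a1 was 0.53 higher in the kidney as deposited, without passing the test, and 0.72 lower after quantile normalization, where it passed. Col16a1, a FACIT chain, was 1.13 higher in the kidney as deposited and -0.09 after quantile normalization.

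**Figure D1:**
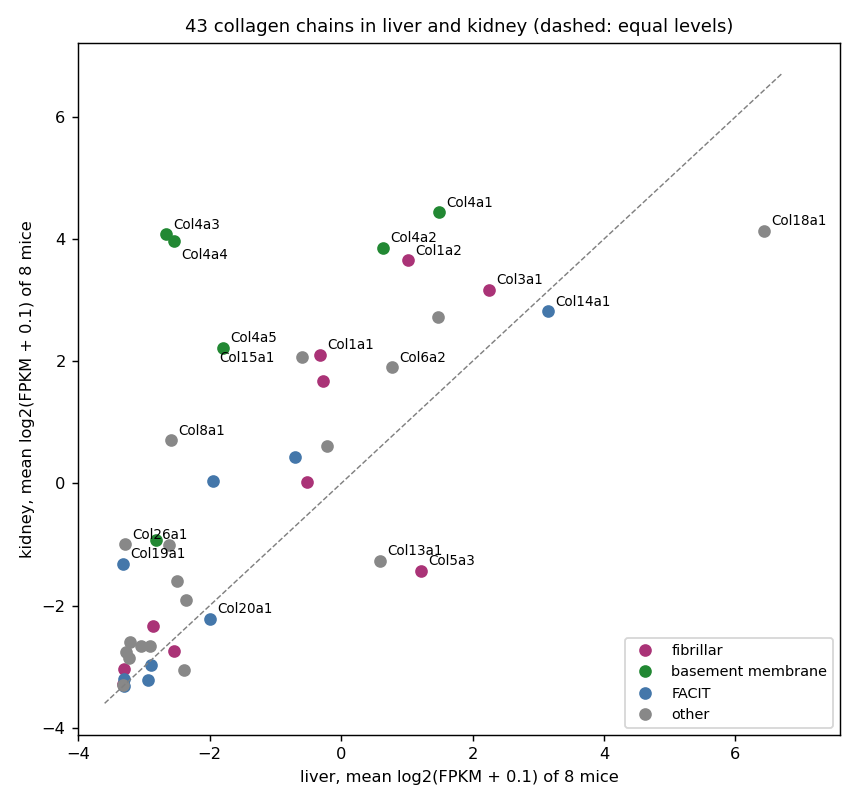
Each point is 1 collagen chain, placed by its mean log2(FPKM + 0.1) over the 8 livers (horizontal axis) and the 8 kidneys (vertical axis) and coloured by class, with a dashed line where both are equal. The type IV chains lie above the line, Col4a3 and Col4a4 farthest from it, while Col18a1, Col13a1 and Col5a3 lie below it.

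Several chains were at or near 0. Col2a1, Col19a1 and Col10a1 were listed at 0 in all 8 livers, which allows up to 0.0260, 0.0126 and 0.0422 FPKM per library (3 fragments, counting error only), and Col9a1 was listed at 0 in all 8 kidneys, which allows up to 0.0455 FPKM. Col19a1, a FACIT chain, was at 0.177 to 0.664 FPKM in the kidneys (35.5 to 126.5 fragments). Col26a1 had 1 fragment in 1 of 8 livers and 8 to 55.5 fragments in each kidney. In the liver 19 chains did not pass the filter of a mean above 0.5 fragments per M, and none of them exceeded 0.179 FPKM in any library. In the kidney 13 did not pass, and none of those exceeded 0.333 FPKM.

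In ADV livers Col1a1, Col1a2, Col3a1 and Col5a2, 4 of the 6 fibrillar chains tested, lay above every LD liver in at least 3 of 4 mice and by far the most in 1 mouse, A94, but no chain passed the adjusted test. Of all genes 59.9% lay above every LD liver in A94, 37.8% in A115, 26.8% in A75 and 24.2% in A91. Of the 24 chains tested, 0 had an adjusted p under 0.05 (limma, smallest 0.299, for Col15a1), in a comparison that called 0.00779% of 12835 genes. At an unadjusted p under 0.05, 7 chains were higher in ADV and 0 lower, where 8.65% of all genes were higher and 3.13% lower. The log2 fold change was above 0 for 20 of 24 chains and for 65.7% of all genes, with a median of 0.75 for the chains and 0.096 for all genes. Without A94 the median was 0.37 over 22 chains, of which 19 were above 0, beside 54.1% of all genes, against a median of 0.025 for all genes. The ADV and LD values did not overlap for 5 chains, all higher in ADV (Col1a1, Col4a2, Col14a1, Col15a1 and Col20a1), where 6.94% of all genes were apart in that direction and 1.89% in the other, in which no chain was. Of the 24 chains 5 passed the filter through 1 condition only, Col6a5, Col6a6 (both below the filter without A94), Col20a1 and Col4a3 through ADV and Col25a1 through LD, so their place in these counts carries no weight. With a mean above 0.5 fragments per M required in each group, 6 of 19 chains had an unadjusted p under 0.05, all higher in ADV, beside 8.59% of genes, and 4 were apart, beside 6.75%. Of those 19 chains 16 were above 0, beside 64.7% of genes, with a median of 0.92, and of 0.37 without A94.

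The fibrillar chains had the highest class median in the liver, a log2 fold change of 1.62 over 6 chains and 0.89 without A94. Values are given for LD in the order L63, L65, L86 and L104 and for ADV in the order A75, A91, A94 and A115. Col1a1 (chr11:94936224-94953042), the major chain of type I collagen, was at 0.323, 0.255, 0.226 and 0.309 FPKM in LD livers and at 0.705, 0.335, 11.4 and 2.07 FPKM in ADV livers. All ADV values lay above all LD values, A91 by the least and A94 by the most. The log2 fold change was 2.19 (standard error 0.84, adjusted p = 0.385, limma) and 1.28 without A94, and the two-sided exact permutation p was 0.0286, the smallest that 4 against 4 mice allow (exact p-values here and below are not adjusted over the chains). Its partner chain Col1a2 was at 0.996, 0.855, 0.968 and 1.18 FPKM in LD and at 2.24, 1.10, 21.9 and 3.15 FPKM in ADV, so that A91 fell within LD. Col3a1, the chain of type III collagen found beside type I in reticular fibres, was at 2.32, 2.45, 2.23 and 2.42 FPKM in LD and at 6.48, 2.24, 67.0 and 6.85 FPKM in ADV. Again A91 was among the LD livers while A75 and A115 stood above them and A94 far above. The log2 fold changes were 1.78 (standard error 0.73) for Col1a2 and 1.91 (standard error 0.82) for Col3a1, and 0.93 and 0.95 without A94.

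Type V chains, which set the width of type I fibrils, were less uniform. Col5a2 was at 0.346, 0.352, 0.481 and 0.414 FPKM in LD livers and at 1.07, 0.323, 4.78 and 1.33 FPKM in ADV livers, with A91 lowest of all 8 mice. Its log2 fold change was 1.46 (standard error 0.60), and 0.85 without A94. Col5a1 had a log2 fold change of 0.77, and 0.27 without A94. Col5a3 had one of 0.10 (standard error 0.29), and 0.37 without A94, with A94 the lowest of the 8 livers for Col5a3 at 1.28 FPKM.

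**Figure D2:**
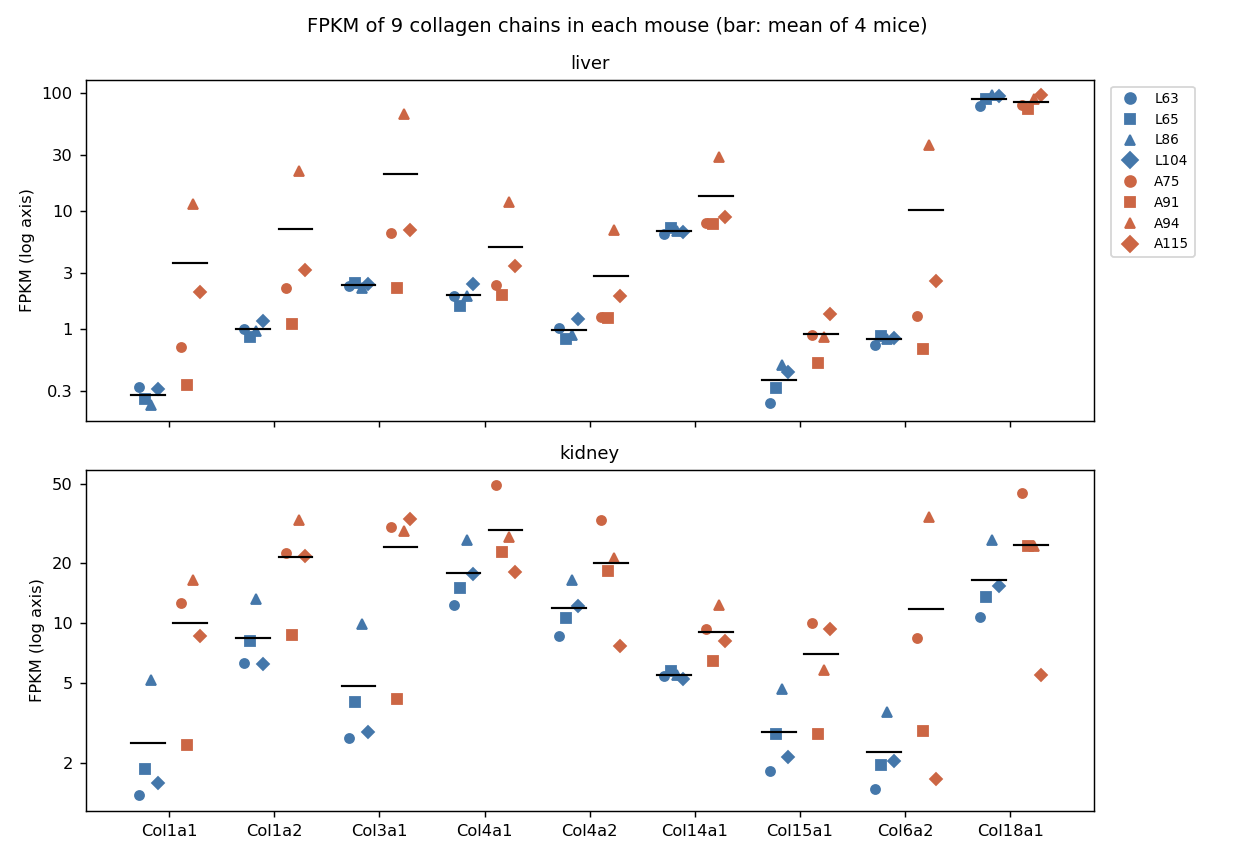
FPKM (log axis) of 9 collagen chains in each liver (top) and kidney (bottom), with LD mice in blue, ADV mice in red, 1 symbol per mouse and a bar at the mean of 4 mice. A94 is the topmost liver for Col1a1, Col1a2, Col3a1, Col4a1, Col4a2, Col14a1 and Col6a2, and in the kidney A115 lies within or below the LD range for Col4a2, Col6a2 and Col18a1 but above LD for Col3a1.

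Of the basement membrane chains in the liver, Col4a2 was at 1.02, 0.821, 0.885 and 1.21 FPKM in LD and at 1.27, 1.23, 6.92 and 1.92 FPKM in ADV. The groups did not overlap, though A91 was only just above L104. Its log2 fold change was 1.07 (standard error 0.47, exact permutation p = 0.0286) and 0.52 without A94. Col4a1 was at 1.92, 1.57, 1.92 and 2.42 FPKM in LD and at 2.38, 1.95, 12.0 and 3.43 FPKM in ADV, and here A75 and A91 lay among LD (log2 fold change 0.92, standard error 0.48, and 0.37 without A94). Col4a3 and Col4a4, at 0.06 and -0.04, and Col4a5, at 0.58, made up the rest of the 5 chains tested, whose median was 0.58, and 0.37 without A94. Over the 4 chains that passed the filter in each group, without Col4a3, the median was 0.75, and 0.37 without A94.

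All 4 FACIT chains tested in the liver had log2 fold changes above 0, from 0.56 to 0.73, with a median of 0.67 and 0.27 without A94. Over the 3 chains that passed the filter in each group, without Col20a1, the median was 0.71, and 0.25 without A94. Col14a1 was at 6.41, 7.23, 6.83 and 6.65 FPKM in LD and at 7.98, 7.84, 28.9 and 8.89 FPKM in ADV. The LD livers were within 1 FPKM of each other and every ADV liver was above them, by little in A75, A91 and A115 (log2 fold change 0.73, standard error 0.37, exact permutation p = 0.0286, and 0.28 without A94). Col20a1, a low FACIT chain, was at 0.0640, 0.0977, 0.101 and 0.147 FPKM in LD and at 0.201, 0.151, 0.265 and 0.239 FPKM in ADV. Those values rest on 6.5 to 15 fragments in LD and 14.5 to 25 in ADV, and the groups were apart by less than the value of 1 fragment. The chain was tested because of its ADV level, its LD mean lying below the filter (log2 fold change 0.63, standard error 0.25, and 0.56 without A94). Col12a1 and Col16a1 had log2 fold changes of 0.71 and 0.56 with overlapping groups, and of 0.16 and 0.25 without A94.

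Among the other chains in the liver, Col15a1, a multiplexin of vessel and muscle basement membranes, had the smallest p of the 24 chains. Its log2 fold change hardly moved without A94 but was 0.46 with a pseudocount of 1 in place of 0.1. It was at 0.236, 0.315, 0.501 and 0.437 FPKM in LD and at 0.898, 0.512, 0.866 and 1.33 FPKM in ADV, with A115 the highest. A91 was only just above L86, the highest LD liver, and the log2 fold change was 1.06 (standard error 0.29, adjusted p = 0.299, limma, exact permutation p = 0.0286) and 1.05 without A94. The median over the 9 other chains tested was 1.02, and 0.33 over 7 chains without A94. Those 2 sets differ, because Col6a5 and Col6a6 were below the filter without A94. Over the 6 chains that passed the filter in each group the median was 1.04, and 0.35 without A94. Several type VI chains were far higher in A94 than in any other liver. Col6a2 was at 0.734, 0.871, 0.833 and 0.838 FPKM in LD and at 1.30, 0.678, 36.1 and 2.54 FPKM in ADV, and Col6a5, which forms type VI filaments with other chains, was at 0.00883, 0, 0.00411 and 0.00441 FPKM in LD and at 0.111, 0, 5.49 and 0.0512 FPKM in ADV. For Col6a5 the A94 liver held 1156 fragments where no other liver held more than 24, and it was tested because of that library (log2 fold change 1.81, standard error 1.09). Col6a1, Col6a2 and Col6a3 had log2 fold changes of 1.30, 1.80 and 1.02, and of 0.33, 0.63 and 0.37 without A94.

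The most abundant liver chain was at the same level in both conditions within the spread. Col18a1 was at 77.4, 88.2, 95.7 and 94.9 FPKM in LD and at 79.4, 73.4, 89.3 and 95.4 FPKM in ADV, a log2 fold change of -0.08 (standard error 0.11). Col13a1 was at 1.498, 1.40, 2.02 and 2.27 FPKM in LD and at 1.16, 1.44, 0.521 and 1.80 FPKM in ADV. Its log2 fold change was -0.60 (standard error 0.33), with A94 lowest of the 8, and -0.27 without A94. Col25a1, a neuronal transmembrane collagen chain that passed the filter through LD, had -0.37, and -0.53 without A94.

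**Figure D3:**
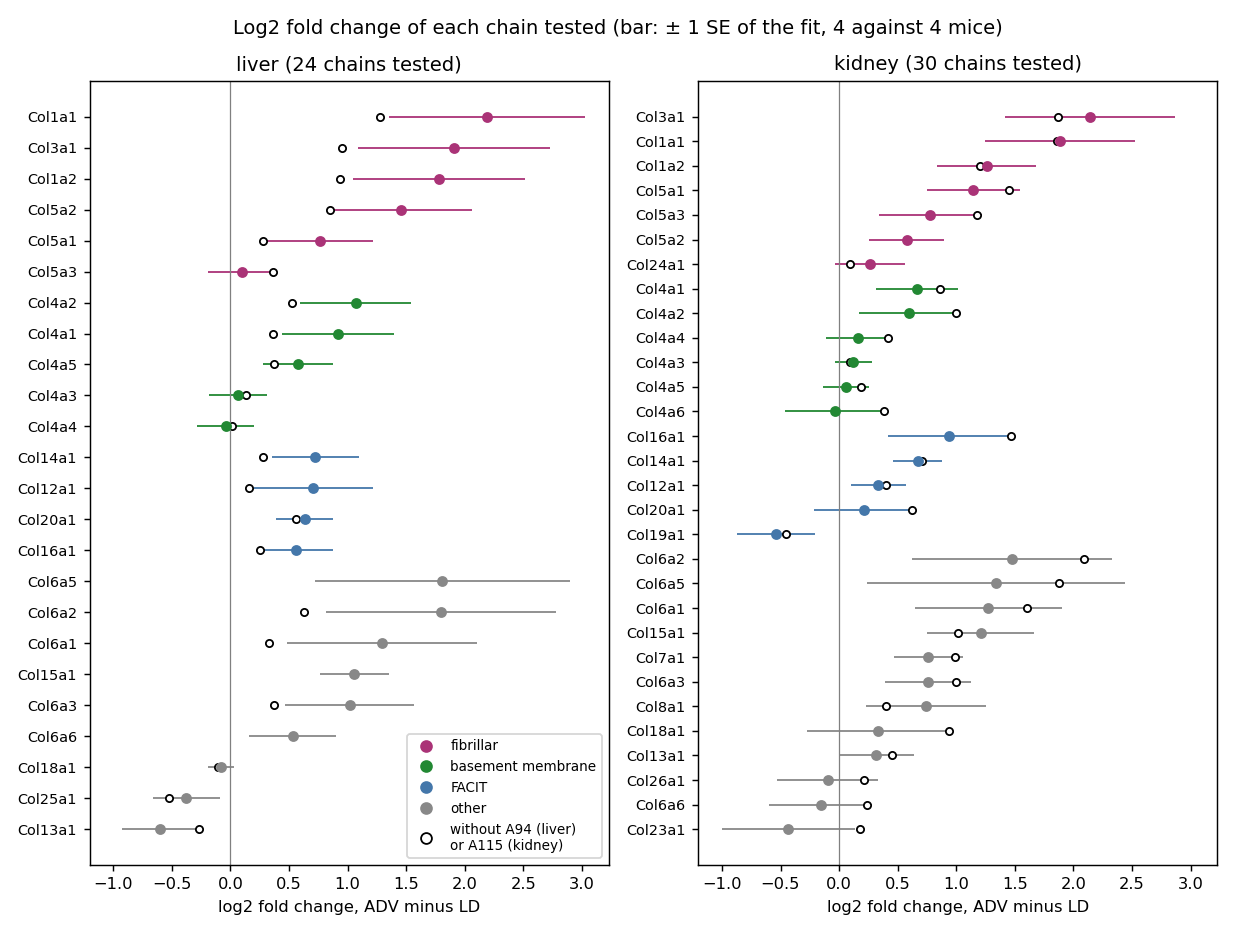
Log2 fold change of ADV against LD for each collagen chain tested in the liver and the kidney, with its standard error, beside the value without the library that stood apart (A94 in the liver, A115 in the kidney). In the liver 20 of 24 chains lie above 0, and most move toward 0 without A94, Col15a1 by little, while Col5a3, Col4a3, Col18a1 and Col25a1 move away from it and Col6a5 and Col6a6 are below the filter, while in the kidney 25 of 30 lie above 0 and 29 of 30 without A115.

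Summed levels of several cell-type lists also lay above LD in the A94 liver, though 0 genes of the lists given here passed the adjusted test. All 13 stellate cell and fibroblast genes tested had log2 fold changes above 0 (6 at an unadjusted p under 0.05, 0 adjusted, limma), beside 65.7% of all genes above 0 and 8.65% higher at that p, and their summed FPKM was 139 to 155 in LD livers and 187 to 492 in ADV livers, highest in A94. Dcn, the fibril-binding proteoglycan decorin, had a log2 fold change of 0.65 (adjusted p = 0.234, limma). All 9 leukocyte genes were above 0, with sums of 95.7 to 147 in LD and 134 to 650 in ADV, again highest in A94. The median log2 fold changes were 0.71 for the stellate list and 0.79 for the leukocyte list, and 0.46 and 0.52 without A94. Endothelial genes had a median of 0.20 (0.096 without A94) and hepatocyte genes one of -0.11 (-0.02 without A94). The 5 smooth muscle genes summed to 3.77 to 5.23 FPKM in LD and 4.86 to 29.1 in ADV, and the 5 cholangiocyte genes to 20.0 to 27.8 in LD and 26.7 to 247 in ADV. Of the 247 in A94 the secreted phosphoprotein Spp1 made up 242 FPKM, and Krt7, Epcam and Sox9 were also above every LD liver there, at 0.711, 1.55 and 1.27 FPKM, while the biliary keratin Krt19, at 0.815 FPKM, was within its LD range. None of the genes on these 6 lists was at 0 in all livers. The part of these cell types in the collagen values was not tested.

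In ADV kidneys the type I and type III chains were above LD in 3 of 4 mice, and no chain passed the adjusted test with all 8 mice and every library weighted alike. Of all genes 51.8% lay above every LD kidney in A75, 52.9% in A94, 24.0% in A115 and 34.0% in A91. Of the 30 chains tested, 0 had an adjusted p under 0.05 (limma, smallest 0.9999), in a comparison that called 0% of 14452 genes. With array weights, which give less weight to libraries that stand apart, 12 of the 30 were higher with an adjusted p under 0.05, beside 13.9% of genes. At an unadjusted p under 0.05, 7 chains were higher in ADV (Col1a1, Col1a2, Col3a1, Col5a1, Col14a1, Col7a1 and Col15a1) and 0 lower, where 1.75% of all genes were higher and 1.35% lower. The log2 fold change was above 0 for 25 of 30 chains and for 46.4% of all genes, with a median of 0.63 for the chains and -0.02 for all genes, and without A94 of 0.51 and -0.10. Only Col14a1 had groups that did not overlap, higher in ADV, where 0.962% of all genes were apart in that direction and 1.83% in the other. Col7a1 and Col20a1 passed the filter through ADV only. With a mean above 0.5 fragments per M required in each group, 6 of 28 chains had an unadjusted p under 0.05, all higher in ADV, beside 1.47% of genes, 1 was apart, beside 0.860%, and 23 were above 0, beside 45.3%, with a median of 0.63.

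Without A115, 6 of 30 chains were higher in ADV with an adjusted p under 0.05 (limma), beside 16.1% of 14475 genes, and 29 of 30 log2 fold changes were above 0, beside 67.8% of genes, with a median of 0.78, against 0.20 for all genes. With the median-ratio scaling as well, which brought the median gene to 0.015, 4 chains rose beside 8.31% of genes, and the median of the chains was 0.59. The 4 were fibrillar Col5a1 and Col5a3, basement membrane Col4a2 and FACIT Col16a1, and the 6 included also Col14a1 and Col7a1. Their log2 fold changes without A115 were 1.45 for Col5a1, 1.18 for Col5a3, 0.997 for Col4a2, 1.47 for Col16a1, 0.71 for Col14a1 and 0.99 for Col7a1. Col7a1, which is also among the 12 called with array weights, was tested only because of its ADV level. With the mean above 0.5 fragments per M required in each group, the counts were 5 of 28 chains, beside 16.7% of genes, and 4 of 28 with the median-ratio scaling, beside 8.98%.

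Of the fibrillar chains in the kidney, Col1a1 was at 1.37, 1.86, 5.17 and 1.57 FPKM in LD and at 12.6, 2.46, 16.5 and 8.64 FPKM in ADV. A75, A94 and A115 were above every LD kidney and A91 fell below L86, the highest LD mouse (log2 fold change 1.88, adjusted p = 0.9999, limma). Col1a2 was at 6.29, 8.12, 13.3 and 6.22 FPKM in LD and at 22.5, 8.75, 33.0 and 21.8 FPKM in ADV, and Col3a1 at 2.67, 4.02, 9.92 and 2.85 FPKM in LD and at 30.3, 4.19, 29.1 and 33.3 FPKM in ADV. For both the same 3 ADV mice stood above LD while A91 was between L65 and L86. The log2 fold changes were 1.26 for Col1a2 and 2.14 for Col3a1, each with an exact permutation p of 0.0571, as for Col1a1, and 1.204 and 1.87 without A115. Col5a1 was at 0.430, 0.561, 0.758 and 0.615 FPKM in LD and at 2.502, 1.07, 2.03 and 0.695 FPKM in ADV, where A115 alone lay among LD. The class median was 1.15 over 7 chains, all above 0, and 1.204 without A115.

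The basement membrane chains of the kidney had a class median of 0.14, and of 0.40 without A115 (6 of 6 above 0), where the median gene was at 0.20. With the median-ratio scaling as well it was 0.23, with 4 of 6 above 0. Col4a1 was at 12.4, 14.96, 26.3 and 17.8 FPKM in LD and at 49.3, 22.7, 27.2 and 18.1 FPKM in ADV, with only A75 well above LD (log2 fold change 0.66, 0.38 without A75 and 0.86 without A115). Col4a2 was at 8.60, 10.7, 16.5 and 12.2 FPKM in LD and at 33.0, 18.3, 21.2 and 7.71 FPKM in ADV, where A115 was the lowest of the 8 mice and the other ADV mice were above LD (log2 fold change 0.60, 0.30 without A75 and 0.997 without A115). Col4a3 was at 15.3, 16.4, 13.8 and 19.1 FPKM in LD and at 19.9, 16.4, 15.6 and 18.5 FPKM in ADV (log2 fold change 0.12, standard error 0.16), and Col4a4 at 14.1, 15.01, 12.4 and 17.8 FPKM in LD and at 22.5, 20.3, 16.7 and 9.60 FPKM in ADV (0.16, standard error 0.27). Without A115 the values were 0.10 for Col4a3 and 0.42 for Col4a4, and -0.09 and 0.23 with the median-ratio scaling as well. A115 was the lowest mouse for Col4a4, where A75 and A91 were above every LD kidney, and among the higher ones for Col4a3.

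Col14a1, the FACIT chain whose LD kidneys lay closest together relative to their mean, was at 5.45, 5.78, 5.52 and 5.28 FPKM in LD and at 9.35, 6.44, 12.3 and 8.14 FPKM in ADV. Every ADV kidney was above every LD kidney, and the log2 fold change was 0.67 (standard error 0.21, exact permutation p = 0.0286). Col16a1 was at 0.683, 0.762, 1.07 and 1.04 FPKM in LD and at 3.38, 1.90, 2.72 and 0.519 FPKM in ADV, with A115 the lowest of the 8 and the other ADV mice above LD (0.94, standard error 0.52, and 1.47 without A115). Col19a1 had the lowest log2 fold change of the class, -0.54 (standard error 0.33). The class median was 0.33 over 5 chains, and 0.62 without A115. Over the 4 chains that passed the filter in each group, without Col20a1, it was 0.50, and 0.55 without A115.

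Among the other chains in the kidney, Col15a1 was at 1.81, 2.77, 4.68 and 2.12 FPKM in LD and at 10.1, 2.79, 5.86 and 9.35 FPKM in ADV. A75, A94 and A115 were above LD and A91 was within it (log2 fold change 1.21, standard error 0.46). Col7a1, the chain of the fibrils that anchor epithelia, was at 0.0170, 0, 0.0289 and 0.0425 FPKM in LD and at 0.199, 0.124, 0.106 and 0.0288 FPKM in ADV, which is 0 to 7 fragments in LD and 5 to 32.5 in ADV, so that its LD mean lay below the filter. Col18a1 was at 10.8, 13.5, 26.2 and 15.4 FPKM in LD and at 44.9, 24.4, 24.5 and 5.53 FPKM in ADV, so that ADV held both the highest and the lowest mouse (0.33, standard error 0.61, and 0.94 without A115). Col6a2 was at 1.47, 1.94, 3.58 and 2.04 FPKM in LD and at 8.48, 2.87, 34.1 and 1.65 FPKM in ADV (log2 fold change 1.48, and 0.66 without A94). Col6a5 had 988 fragments in A94 and 4 to 30 in the other kidneys, so the high Col6a5 of the A94 liver was found in the kidney of the same mouse as well. The class median was 0.75 over 12 chains, and 0.96 without A115.

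The A115 kidney was low for some chains and high for others, and base composition is given beside these values. Against the mean of the other 7 kidneys, 21 of 30 chains were lower in A115 on the log2 scale, among them Col23a1 by -2.36 (GC content 55.1%), Col18a1 by -1.88 (60.8%), Col16a1 by -1.29 (61.4%) and Col4a2 by -1.02 (60.6%), whereas Col3a1 was higher by 2.16 (52.5%), Col8a1 by 1.60 (46.8%), Col15a1 by 1.34 (56.4%) and Col1a1 by 1.16 (58.9%). The share of all genes lower in A115 was not computed, so the count of 21 cannot be called particular to collagens. Across the 30 chains, which share that library, the difference had a Pearson correlation of -0.377 (Spearman -0.395) with transcript GC content, and across 13497 genes of -0.731. In the A94 kidney, where 4 of 30 chains were lower than the mean of the other 7, these were 0.135 (Spearman 0.268) and 0.430. For the A94 liver they were -0.162 (Spearman -0.166) over 24 chains and 0.088 over 12148 genes. The collagen chains had a median GC content of 55.4%, against 50.5% for all genes. The part of GC content in the collagen values of A115 or A94 was not tested. Stellate cell and fibroblast genes were above 0 for 13 of 14 in the kidney, beside 46.4% of all genes, with sums of 83.1 to 119 FPKM in LD and 106 to 228 in ADV, leukocyte genes for 9 of 9, with 175 to 513 in LD and 159 to 1688 in ADV, and the highest sums of both were in A94. The 5 smooth muscle genes summed to 25.9 to 42.8 FPKM in LD kidneys and to 31.8 to 119.7 in ADV, highest in A75. The cholangiocyte list, most of it Spp1, summed to 687 to 2793 FPKM in LD, 6820 in A75, 8235 in A115, 917 in A94 and 664 in A91. None of these genes was at 0 in all kidneys, and their part was not tested.

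**Figure D4:**
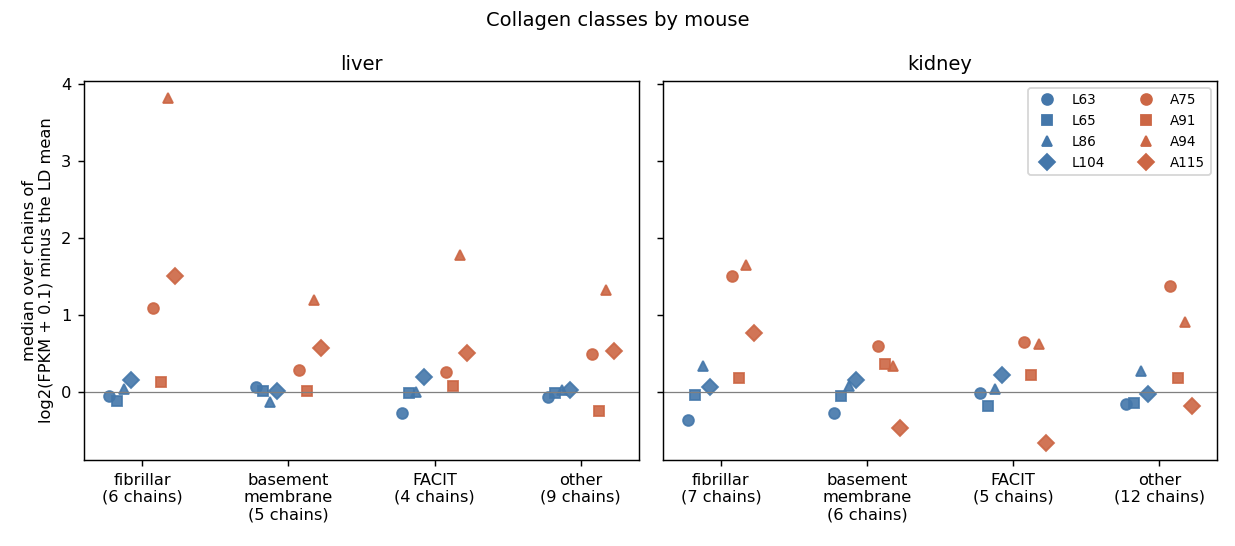
Median log2 level of the tested chains of each class in each mouse, relative to the LD mean, in liver and kidney (LD blue, ADV red). For the fibrillar chains A94 stands highest in both organs, at 3.82 in the liver and 1.65 in the kidney, and A91 is at 0.13 and 0.19.

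The ADV mice were not alike, and their order differed between the organs. In the liver the median over the 24 chains, relative to the LD mean on the log2 scale, was 2.16 in A94, 0.68 in A115, 0.35 in A75 and -0.05 in A91, with LD mice from -0.06 to 0.07. In the kidney the median over 30 chains was 1.17 in A75, 0.85 in A94, 0.20 in A91 and -0.02 in A115, with LD mice from -0.22 to 0.21. A94 held the highest of the 8 values for 17 of 24 chains in the liver, and in the kidney A75 held 14 of 30 and A94 9. Over all genes tested A94 held the highest value for 49.7% in the liver, and A75 for 28.1% and A94 for 26.2% in the kidney. Col6a5 and Col6a6 count here through A94 alone. Over the chains that passed the filter in each group, A94 was highest for 14 of 19 in the liver, with a median of 2.36, and in the kidney A75 was highest for 13 of 28 and A94 for 9. A91 was above the LD maximum for 6 of 24 chains in the liver and 11 of 30 in the kidney, where A75 was above it for 17 and 23. Of all genes A91 was above the LD maximum for 24.2% in the liver and 34.0% in the kidney, and A75 for 26.8% and 51.8%. A test of whether the ADV effect differed between the organs called 0 of 29 chains (limma interaction, adjusted p under 0.05) in a fit that called 0% of 14379 genes, and 0 chains at an unadjusted p under 0.05, where 3.73% of genes passed.

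Chains that are built into the same trimer can be compared by the ratio of their FPKM in each mouse, given here for 5 pairs whether or not the groups overlapped. Col4a1 to Col4a2 was 1.88, 1.92, 2.16 and 1.997 in LD livers and 1.87, 1.58, 1.74 and 1.79 in ADV livers, so the ADV ratios were the lower 4. In the kidney it was 1.40 to 1.59 in LD and 1.49, 1.25, 1.29 and 2.35 in ADV, with A115 highest. Col4a3 to Col4a4 was 1.07 to 1.11 in LD kidneys, 1.92 in A115 and 0.81 to 0.93 in the other ADV kidneys, below all LD mice. In the liver, where these chains had as few as 8 fragments, it was 0.625 to 0.876 in LD and 0.764 to 1.02 in ADV, with overlap. Col5a1 to Col5a2 was 1.005 to 1.24 in LD livers and 0.380, 1.53, 0.511 and 0.606 in ADV livers, with A91 above LD and the others below it. In the kidney it was 0.181 to 0.273 in LD and 0.578, 0.514, 0.338 and 0.184 in ADV, with A115 within LD and the others above it. Col6a1 to Col6a2 was 1.83 to 2.42 in LD livers and 1.67, 1.81, 0.89 and 1.40 in ADV livers, again the lower 4 and lowest in A94. In the kidney it was 1.77 to 2.03 in LD and 1.45, 1.65, 1.06 and 3.04 in ADV, so that A115 alone was above LD and the others below it. Col1a1 to Col1a2, which are built in as a pair of the former and a single copy of the latter, was 0.234 to 0.325 in LD livers and 0.315, 0.305, 0.519 and 0.657 in ADV livers, where A75 and A91 lay within LD. In the kidney it was 0.218 to 0.390 in LD and 0.558, 0.281, 0.499 and 0.396 in ADV, with A91 within LD and A115 just above it.

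**Figure D5:**
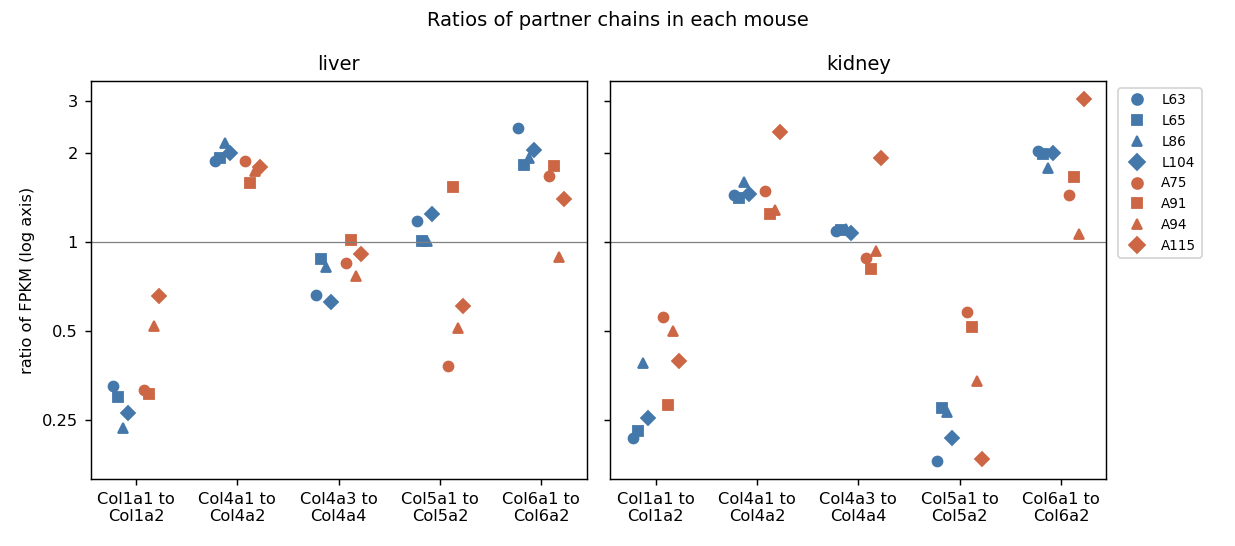
FPKM ratio (log axis, line at 1) of partner chains in each mouse, LD blue and ADV red, in the liver (left) and the kidney (right). In the kidney A115 is the highest point for Col4a1 to Col4a2, Col4a3 to Col4a4 and Col6a1 to Col6a2, and in the liver A94 is the lowest for Col6a1 to Col6a2.

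Genes that make, join, bind and cut collagen were described by 4 lists, and 0 genes of any list passed the adjusted test in either organ (limma), so counts at an unadjusted p under 0.05 are given. Of all genes tested 8.65% were higher and 3.13% lower at that p in the liver, and 1.75% and 1.35% in the kidney. Of folding and modification genes, 17 were tested in the liver (median log2 fold change 0.13, and 0.0049 without A94) and 2 were higher and 1 lower, Creb3l1, a transcription factor of secretory cells, at 1.28, P3h2, a prolyl 3-hydroxylase, at 0.69 and Mia3, which loads collagen into transport vesicles, at -0.30. In the kidney 1 of 18 was higher, Ppib, a prolyl isomerase, at 0.35, and the list median was -0.019, -0.067 without A94 and 0.40 without A115. Serpinh1, the collagen chaperone HSP47, had 0.75 in the liver (standard error 0.43). Of processing and cross-linking genes, 1 of 11 was higher in the liver, Loxl4 at 0.74, and 1 of 12 in the kidney, Lox at 1.41, both lysyl oxidases that cross-link fibrils, and the list medians were 0.77 and 0.53, with 0.30 in each organ without A94 and 0.82 in the kidney without A115.

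Of the collagen receptors, 3 of 8 were higher in the liver, the integrin chain Itga1 at 0.48, the adhesion receptor Adgrg1 at 0.53 and the inhibitory leukocyte receptor Lair1 at 0.97, and 0 of 10 in the kidney. Of the collagenolysis genes, 2 of 8 were higher in the liver, Timp1, an inhibitor of metalloproteinases, at 1.84 and Mmp2, a gelatinase, at 1.25, and 0 of 8 in the kidney, where Timp1 had 1.96 (standard error 1.09). The median log2 fold changes of these lists were 0.58 and 0.51 in the liver and 0.34 and 0.38 in the kidney, and without A94 they were 0.35 and 0.11 in the liver and 0.17 and 0.11 in the kidney. Without A115 they were 0.51 and 0.52 in the kidney.

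Patterns over the 8 mice most like those of Col1a1 and Col4a1 were found by the Pearson correlation of log2(FPKM + 0.1), given as a description. For Col1a1 in the liver the nearest genes were Shkbp1 (0.992), Srxn1 (0.990), Tmem181a (0.987), Col1a2 (0.986) and Myo5a (0.986). In the kidney they were Col1a2 (0.991), Pirb (0.979), Col3a1 (0.974), Uhrf1 (0.971) and C3ar1 (0.968). For Col4a1 they were P2ry6, AI506816 and Inpp5d (each 0.994), Ets1 (0.993) and Col4a2 (0.992) in the liver, and Sumo3 (0.988), Dusp8 (0.981), Tubb2a (0.980), Acta2 (0.973) and Fxyd6 (0.970) in the kidney. The partner chain was thus among the 5 nearest in 3 of these 4 cases, and all 8 points share the 2 groups and the libraries that stood apart.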

How the data were processed

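Poly(A) RNA of liver and kidney was sequenced in pairs with a stranded kit. The authors trimmed the reads, aligned them to mm10 with STAR 2.5.4b (the version from the submitters' processing notes), filtered them by mapping quality and quantified genes with HOMER, and they deposited FPKM per gene for each library, 1 table per organ. Whether the counting used strand is not given in the sources used here, which bears on the 22 bases that Col4a1 and Col4a2 share. Each FPKM uses its own library's total, so levels were set across the tables on that scale. Samples were grouped by the labels, which give mouse numbers shared by the 2 organs of an animal. The study's own test needs counts, which the deposited FPKM are not, and it was not run on the fragments recovered below. Instead limma 3.58.1 (R 4.3.3, trend) was run on log2(FPKM + 0.1) of genes with a mean above 0.5 fragments per M (1000000), within each organ and over both for organ and interaction, with Benjamini-Hochberg adjustment over all genes tested and a threshold of 0.05. Fold changes on this scale understate those of low genes. Single chains also had a two-sided exact permutation test of mean FPKM over the 70 assignments of 4 of 8 mice. The p-values measure the spread between mice. FPKM times exon length and library total came out in steps of 0.5 fragments for 100% of values within 0.05 of a step, and limma-voom on these fragments was an alternative. Statistics were tested on simulated data with independent genes and no library that stood apart. Of 200 genes shifted by 1.5 on the log2 scale, the test called 166 in the liver, with 10 others. In the kidney it called 104 of 200, with 7 others. The chains named with values per mouse were those the study names, the highest of each class, those with an unadjusted p under 0.05 or groups apart, and the most different of each class. Col13a1 in the liver, Col4a3 and Col4a4 in the kidney, and values of a chain in the organ where it did not qualify, were added after their values were seen. The members and lists were chosen with earlier results of these data known. The deviations of the 2 organs of a mouse from their group means had correlations of -0.0242 (A75) to 0.553 (A94) over 12319 genes.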

Additional observations from a re-analysis of the deposited data

Results flagged for a closer look

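Among 60 groups of 4 mice examined for the named chains, 12 held a mouse far from the other 3, measured as its gap to the nearest mouse over the whole range of the group, above Dixon's 95% critical value for 4 values. Chance gives about 1 in 20 groups where groups are independent and not picked by their values. Here the chains were named partly by their values and share the same 8 mice, so the number has no such yardstick. A94 was the mouse in 9 of the 12. In ADV livers it was the highest for Col1a1 (0.843), Col1a2 (0.901), Col3a1 (0.929), Col4a1 (0.854), Col4a2 (0.880), Col14a1 (0.950), Col6a2 (0.948) and Col6a5 (0.980), and in ADV kidneys for Col6a5 (0.974). L86 was the highest LD kidney for Col1a1 (0.870), L104 the lowest LD kidney for Col6a5 (0.839), and A91 the lowest ADV kidney for Col3a1 (0.858).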

How the results depend on the processing

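With 4 mice per group, the A94 liver and the A115 kidney set how firmly the collagen values can be read. No chain passed the adjusted test in the liver under any setting tried, leaving out each mouse in turn included (0 to 0). The 7 liver chains with an unadjusted p under 0.05 became 1 with a pseudocount of 1, 2 with limma-voom and 1 to 13 when each mouse was left out, 1 without L65 or L86, 2 without L63 or A115, 3 without L104, 5 without A75, 9 without A94 and 13 of 23 without A91 (beside 17.3% of genes, smallest adjusted p 0.112, limma). All 7 were higher in ADV, whereas 1 of the 2 without A115 and 1 of the 9 without A94 were lower. With all mice 1512 of 12835 liver genes had that p, 1405 with a pseudocount of 1 and 1423 with limma-voom. Leaving out each mouse in turn gave 998 to 2229 genes, and 1815 of 12553 without A94. The 7 kidney chains at that p became 2 without A75, 3 without L63, 4 without A94 and 16 without A115, and 11 with the median-ratio scaling or quantile normalization. Beside these, 448 of 14452 kidney genes had that p with all mice, 323 of 14386 without A75 and 174 of 14488 without L63. The number was 244 of 14291 without A94, 5366 of 14475 without A115, 437 with the median-ratio scaling and 432 with quantile normalization. In the kidney the count of chains past the adjusted test was 0 with 8 mice weighted alike, 12 with array weights, and 4 without A115 with the median-ratio scaling, and leaving out each mouse in turn gave 0 to 6, the 6 without A115. The effects of ADV differed between the organs for 1 chain, Col16a1, with array weights, beside 9.05% of genes, and for none otherwise. Of the chains that differed between organs, 14 of 17 did so with a mean above 1 FPKM, beside 74.5% of genes, fewer because fewer were tested. When each mouse was left out, 21 to 24 chains differed, beside 71.0 to 84.7% of genes. Col20a1 in the kidney turned to -0.23 with limma-voom on fragments, and Col18a1 to -0.063 without A75 (-0.063 to 0.94 when each mouse was left out). The cause of these turns was not tested. Without A94 the liver median over all tested chains went from 0.75 to 0.37, the fibrillar median from 1.62 to 0.89 and that of the other chains from 1.02 to 0.33. Over the chains that passed the filter in each group, the median of all went from 0.92 to 0.37 and that of the other chains from 1.04 to 0.35. The filter within each group was chosen after seeing the data and left the adjusted counts with all mice at 0 in each organ, and took the chains higher in the kidney than in the liver from 20 of 29 to 13 of 23. With the mouse as a replicate block over both organs the counts were 0 of 29 in the liver, 0 of 29 in the kidney, 0 for the interaction and 23 for the organ difference, so the pairing changed no call.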
